A study of Mus musculus with 9 samples.

Results

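Nucleic-acid sensing was examined across 8 genes in macrophages that lack tristetraprolin (TTP, the product of Zfp36) and carry an inducible TTP transgene. The 8 genes are Ifih1, Ddx58, Dhx58, Eif2ak2, Zbp1, Mavs, Adar and Tlr3, out of 25494 genes in the deposited library table. They were named by function, but the set was selected on measured values of the same RNASeq data, in which Ifih1 had already stood out in all 3 comparisons between groups. Their changes are therefore given as a description, with no test. All 8 have library values, and 7 are listed in the comparison tables. Zbp1 is not and has levels only.

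The cells were immortalized mouse bone marrow-derived macrophages (BMDMs) from TTP-deficient animals, grown out with M-CSF and transformed with the oncogenes hcmyc and hRasG12V. CD11b- and F4/80-positive cells were then transduced with a tet-inducible retroviral vector for GFP (labelled GFP/EV), for GFP-TTP, or for GFP-TTP-AA, in which the S52A and S178A mutations remove the serines that the kinase MK2 phosphorylates. All 3 groups received 1 µg/ml doxycycline for 6 h and 1 µg/ml LPS for 1 h, so no group was left without LPS or doxycycline. The groups are called GFP, TTP and TTP-AA below, and each had 3 libraries of rRNA-depleted total RNA. The transgenes held coding sequence only, and each was carried by its own transduced population. A difference between the transduced populations and an effect of the transgene cannot be told apart.

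RIG-I-like receptors are cytosolic helicases that recognise viral RNA. MDA5 (Ifih1) binds long double-stranded RNA, RIG-I (Ddx58) binds RNA with a 5′ triphosphate, and LGP2 (Dhx58) has no signalling domain of its own and modulates the other two. MDA5 and RIG-I signal through the mitochondrial adaptor MAVS to type I interferon, and in macrophages most of these genes are themselves induced by interferon. TTP is an RNA-binding protein that recruits deadenylases to AU-rich elements in 3′UTRs, and phosphorylation by MK2 during LPS stimulation restrains it.

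The deposited value of each gene in each library turned out to be the fitted mean of the authors' DESeq2 model rather than a measured read number. A fitted mean is a library factor times a replicate term times a condition term, so it holds no scatter, and the ratio between conditions is the same in each replicate number by construction. Library levels below are those fitted means divided by a library factor, in reads. Errors of changes are the standard errors (SE) of the authors' model over 3 libraries a group. "Called" means a deposited DESeq2 adjusted p under 0.05. The fitted sums ran from 21482954 to 102613526 reads a library, TTP-AA replicate 3 being the deepest. Zfp36 itself, disrupted in the host cells and supplied by the transgenes, differed by 0.04 ± 0.17 (log2, SE) between TTP and GFP (DESeq2 adjusted p 0.93), which gives no check of the TTP label. It was higher in TTP-AA than in GFP by 0.69 ± 0.17 (DESeq2 adjusted p 0.000682), and than in TTP by 0.65 ± 0.17 (DESeq2 adjusted p 0.000902). Of 10 macrophage markers all were detected, Lyz2, Csf1r and Cd14 among the highest, while 12 of 17 markers of other cell types found were under 2 reads in every library and 1, Flt3, exceeded 50.

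Stretches around the transcription start are shown for the 3 sensor genes whose promoter holds 2 GAAA runs separated by any 2 bases, the core of the element that interferon-activated factors bind. The sequences are from RefSeq on GRCm38, 5′ to 3′ on the strand of the gene, and cover the last 50 bases before the start and the first 50 from it. The match is in capitals.
Ifih1, chr2:62646206-62646305, minus strand: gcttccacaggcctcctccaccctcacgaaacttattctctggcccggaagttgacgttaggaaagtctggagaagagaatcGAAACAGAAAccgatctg
Ddx58, chr4:40239776-40239875, minus strand: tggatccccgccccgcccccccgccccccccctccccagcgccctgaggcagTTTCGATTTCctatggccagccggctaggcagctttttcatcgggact
Eif2ak2, chr17:78882523-78882622, minus strand: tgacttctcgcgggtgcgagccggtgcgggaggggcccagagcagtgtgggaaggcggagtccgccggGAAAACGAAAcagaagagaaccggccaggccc
The match began 33 bases from the start in Ifih1 and 19 bases in Eif2ak2, and in Ddx58 it lay on the opposite strand from base 3, so that it reads as TTTC runs. Windows of 300 bases were found for 6 of the 8 genes, namely these 3 with Mavs, Adar and Tlr3, and both strands were searched. A match was present in 3.44% of all 32851 RefSeq windows and in 3.99% of the 27025 genes that have a window. No link between the match and the changes below was tested.

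The 7-base AU-rich sequence TATTTAT, of the kind that TTP binds, was searched in the 3′UTR of the transcript with the longest coding sequence, on the sense strand, in GENCODE on GRCm38. It occurred in Ifih1, Eif2ak2 and Tlr3. The sites are shown with 10 bases on each side and the motif in capitals, for the 3 members that hold it.
Ifih1, base 643 of 2111: tttccagatcTATTTATtttatgtcta
Eif2ak2, base 142 of 2575: acagacattgTATTTATtaggctatga
Eif2ak2, base 1067 of 2575: atagtagcctTATTTATaatagccagg
Tlr3, base 393 of 1248: gtcttgaactTATTTATctctgcctcc
Tlr3 had 3 matches in all, the other 2 overlapping at bases 89 and 93, Eif2ak2 had 2, and Ifih1 had 1. Of 11424 listed genes with a 3′UTR, 27.4% held at least 1 match. The 3′UTRs of Ddx58, Dhx58, Adar, Mavs and Zbp1 held none. The AU share of the 3′UTR was 65.2% in Tlr3, 62.4% in Ifih1 and 55.8% in Eif2ak2, against a median of 55.5% over the 11424 genes. In Ddx58, Dhx58, Zbp1, Mavs and Adar it was under that median, from 47.7% in Adar to 53.5% in Dhx58. No link between the motif and the changes below was tested.

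The RIG-I-like receptors were measured first. Ifih1 (ENSMUSG00000026896, chromosome 2, 62595798 to 62646255, GRCm38, minus strand) had fitted levels of 196.7, 195.6 and 444.9 in GFP replicates 1 to 3. In TTP the levels were 38.8, 38.3 and 87.9. In TTP-AA they were 507.5, 502.6 and 1147.6. Each fitted TTP value was below each GFP value and each TTP-AA value was above each GFP value. Replicate 3 was the high one in all 3 groups, which the shared replicate term requires. Fitted ratios between groups are equal in each replicate number. Such a separation, here and for the genes below, therefore only sets the condition change against the replicate term and shows no agreement among measurements. The TTP values rested on few reads, with fitted read numbers of 23.7, 38.5 and 91.7 in replicates 1 to 3.

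Ddx58 (chromosome 4, 40203773 to 40239828, minus strand) had fitted levels of 432.8, 376.1 and 561.4 in GFP and of 166.4, 143.5 and 216.2 in TTP. In TTP-AA its levels were 447.5, 387.2 and 580.2. The fitted TTP values lay below all others, whereas those of GFP and TTP-AA overlapped. Dhx58 (chromosome 11, 100694884 to 100704271, minus strand) had levels of 167.9, 191.9 and 298.0 in GFP and of 73.7, 83.7 and 131.1 in TTP. In TTP-AA they were 157.5, 179.3 and 279.5. Its pattern was that of Ddx58, with low fitted TTP values and overlapping ranges in the other groups. An antisense gene, Dhx58os, shares 141 exonic bases with Dhx58, and the strand setting of the counting was not stated, so reads of the pair cannot be told apart.

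The effector kinase, the editor and the adaptor were among the more abundant members. Eif2ak2 (chromosome 17, 78852564 to 78882573, minus strand) encodes PKR, which shuts down translation by phosphorylating eIF2α when it binds double-stranded RNA. Its levels ran from 2421.0 to 2897.1 in GFP, from 2200.7 to 2657.5 in TTP and from 2318.7 to 2785.2 in TTP-AA, with all ranges overlapping. Adar (chromosome 3, 89715022 to 89753446, plus strand) encodes ADAR1, which edits adenosine to inosine in double-stranded RNA and so keeps endogenous RNA from engaging MDA5. Adar had levels of 1369.3, 1006.0 and 1351.9 in GFP, of 925.1, 674.6 and 914.7 in TTP and of 1308.4, 957.2 and 1291.1 in TTP-AA. All 3 fitted TTP values were below those of the other groups, which again only sets the condition change against the replicate term. Mavs (chromosome 2, 131234063 to 131248025, plus strand) ran from 816.8 to 1317.7 in GFP, from 821.5 to 1323.3 in TTP and from 747.1 to 1205.9 in TTP-AA, and its groups overlapped.

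Tlr3 (chromosome 8, 45395665 to 45411080, minus strand), the endosomal receptor for double-stranded RNA, ran from 133.6 to 239.6 in GFP, from 104.4 to 187.0 in TTP and from 132.2 to 237.2 in TTP-AA. Its replicate 1 was the high library in each group, and the groups overlapped. Zbp1 (chromosome 2, 173206612 to 173218923, minus strand), a sensor of Z-form nucleic acid upstream of necroptosis, had fitted levels of 0.7 to 0.8 in the 9 libraries. This is under 1 read, and as fitted values are never 0 such a level cannot be set apart from no reads. Exons overlap a gene on the other strand in Adar (1365 bases, Chrnb2), Tlr3 (381 bases, Gm45542) and Eif2ak2 (174 bases, Gm26637). Ifih1, Ddx58, Mavs and Zbp1 had no exonic overlap.

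**Figure D1:**
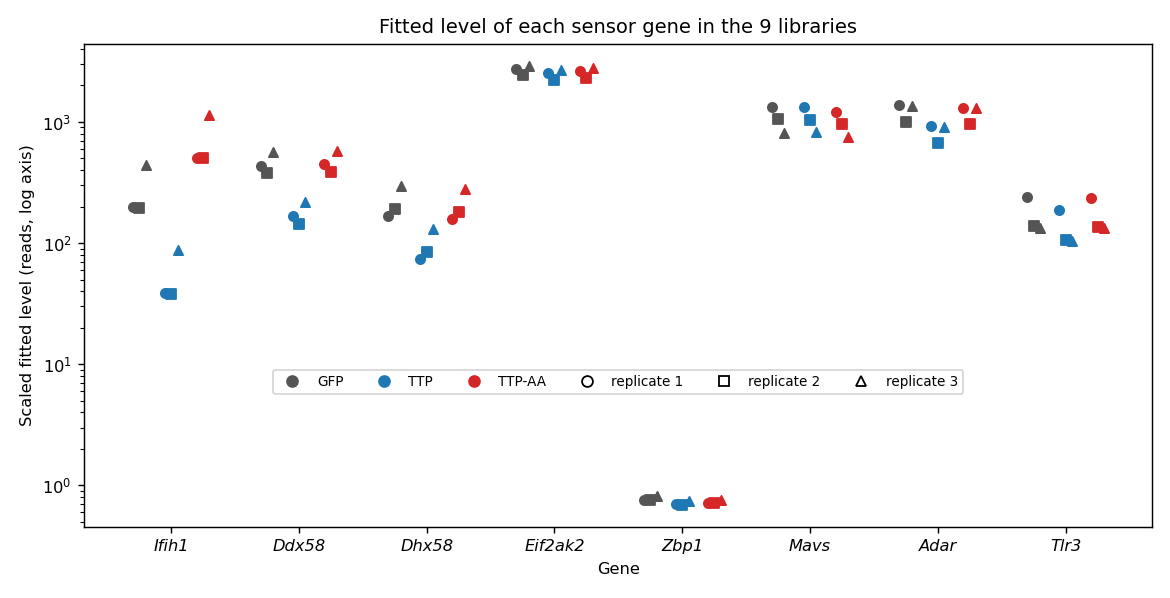
Scaled fitted level in reads (log axis) of the 8 sensor genes in each of the 9 libraries, coloured by group, with the marker showing the replicate number. The points are fitted means and carry no measured scatter. Ifih1 spans 38.3 to 1147.6 reads, while Eif2ak2 stays between 2200.7 and 2897.1 and Zbp1 under 1.

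Per kilobase of transcript, the order of levels was set by the group mostly through Ifih1. In GFP, the geometric mean level per kilobase was 622 for Eif2ak2, 341 for Mavs, 210 for Adar, 116 for Ddx58, 88.1 for Dhx58, 47.1 for Ifih1 and 37.2 for Tlr3. The ranges over the GFP libraries overlapped for Ddx58 and Dhx58, for Dhx58 and Ifih1 and for Ifih1 and Tlr3, though within a library Ddx58 was above Dhx58 and Dhx58 above Ifih1 in 3 of 3. Ifih1 was above Tlr3 in 2 of 3, and each gene's libraries differ by the same replicate term in every group. Eif2ak2, Mavs and Adar did not overlap. In TTP, Ifih1 was at 9.27 per kilobase, from 7.0 to 16.1 over libraries, below Tlr3 at 29.0 without overlap. In TTP-AA, Ifih1 was at 121 per kilobase, next to Ddx58 at 120, with overlapping ranges and above it in 1 of 3 libraries. Dividing by the union of all exons exchanged Ddx58 and Dhx58, and left the order of the other genes in GFP.

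The comparison of TTP with GFP asks which transcripts respond to the wild-type protein. In the authors' deposited table Ifih1 was 5.05-fold lower in TTP, a log2 change of -2.34 ± 0.18 (SE, n = 3 libraries a group), which was the 4th lowest of 11977 genes. Ddx58 changed by -1.37 ± 0.17 on the log2 scale and Dhx58 by -1.18 ± 0.20, that is 2.59-fold and 2.27-fold lower. Adar changed by -0.56 ± 0.11 (log2). These 4 of 7 members were called lower and 0 were called higher, beside 5.08% of all genes called lower and 4.08% called higher. The values that chose the members come from this same contrast, and nothing is read from that count.

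The remaining members were not called. Tlr3 changed by -0.35 ± 0.20 on the log2 scale, with a 95% interval from -0.74 to 0.04. Eif2ak2 changed by -0.12 ± 0.10 (interval -0.31 to 0.07) and Mavs by 0.01 ± 0.11 (interval -0.20 to 0.23). The kinase and the adaptor thus had intervals that leave out a change as large as that of Adar. Within the set the change of Ifih1 lay 0.96 below that of the next gene, Ddx58, and Ddx58 lay 0.19 below Dhx58. Ifih1 had stood out before the set was chosen, so these gaps are a description only. The median change of the 7 members was -0.56, against 0.011 for all genes.

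TTP-AA was compared with GFP to ask the same of the mutant. Ifih1 was 2.58-fold higher, by 1.36 ± 0.16 on the log2 scale, the 64th highest of 13205 genes. It was the 1 of 7 members called, beside 9.11% of all genes called higher and 8.77% called lower. Ddx58 changed by 0.05 ± 0.17 (interval -0.28 to 0.37), Dhx58 by -0.09 ± 0.20 (interval -0.48 to 0.29) and Adar by -0.07 ± 0.11 (interval -0.29 to 0.15), all on the log2 scale. Tlr3 changed by -0.02 ± 0.20, Eif2ak2 by -0.06 ± 0.10 and Mavs by -0.13 ± 0.11. Ifih1 stood 1.32 above Ddx58, the next gene, a gap that is again a description only. The members' median was -0.06, against 0.001 for all genes.

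The direct comparison of TTP-AA with TTP asks how the groups without and with the phosphorylation sites differ. Zfp36 RNA also differed between these groups, by 0.65 ± 0.17 on the log2 scale. An effect of the mutation and one of that difference cannot be told apart. The comparison uses the same libraries as those with GFP, and in the deposited tables its change is the difference of the other 2. Ifih1 was 13.0-fold higher in TTP-AA, by 3.70 ± 0.18 on the log2 scale, the 2nd highest of 13205 genes. Ddx58 was higher by 1.42 ± 0.17, Dhx58 by 1.09 ± 0.20 and Adar by 0.49 ± 0.11 on the same scale. These 4 of 7 were called higher and 0 lower, beside 14.0% of all genes called higher and 14.6% called lower. Tlr3 differed by 0.33 ± 0.20, Eif2ak2 by 0.06 ± 0.10 and Mavs by -0.14 ± 0.11, none of them called.

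**Figure D2:**
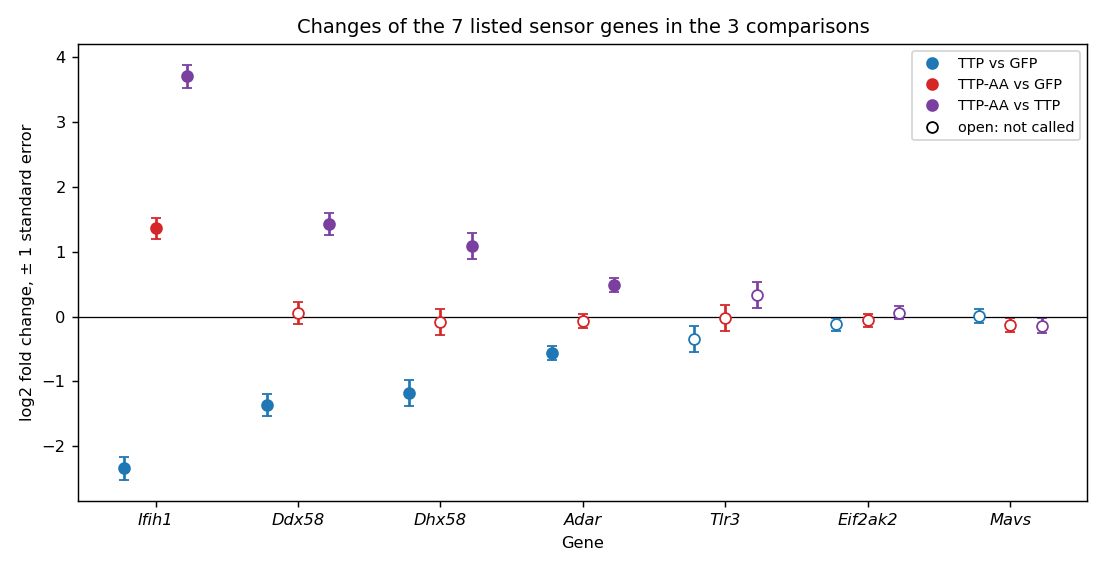
log2 fold changes of the 7 listed sensor genes, with bars of 1 SE, in the 3 comparisons, which share libraries. Filled points are called. Ifih1 is at -2.34, 1.36 and 3.70. Ddx58 and Dhx58 are low in TTP and near 0 in TTP-AA vs GFP, and Eif2ak2 and Mavs stay within 0.14 of 0.

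These errors have 2 limits. The deposited changes of low-count genes are pulled toward 0, since no SE exceeded 0.235 at any read depth and 314 genes in the TTP vs GFP table had an SE under what read counting alone gives. The SE of Ifih1 in that table, 0.18, was above its counting value of 0.13. Dividing the Wald scores by their central spread (1.51, 1.77 and 2.17 in the 3 comparisons) kept Ifih1 called in all of them, and ended the calls of Adar in both comparisons with TTP and of Dhx58 in TTP-AA vs TTP. With the DESeq2 scores referred to a t distribution of 4 degrees of freedom 0 genes were called in any comparison. Of the 7 members, 4, 1 and 4 had an unadjusted p under 0.05 there in the 3 comparisons. The members were chosen on these contrasts, so nothing is read from that count.

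Replicate number carried differences for some members that were as large as those between conditions. Ifih1 was 2.26-fold higher in replicate 3 than in replicate 1, a log2 difference of 1.18 that lay at the 99.8th percentile of listed genes. The matching value was 0.83 for Dhx58 (98.8th percentile) and 0.38 for Ddx58 (92.3rd percentile). In the other direction Tlr3 had -0.84 (1.7th percentile) and Mavs -0.69 (2.9th percentile). Adar had -0.02 and Eif2ak2 0.07 in this pair, but Adar was lower in replicate 2 than in replicate 1 by a log2 difference of -0.44 (11.2th percentile). The replicate term was estimated across all 3 groups at once, so its size does not enter the condition changes above. Whether it differed between groups could not be read from fitted values. The authors' model names it as library date.

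The genes that work with these sensors were described through 9 lists written by function, of which 130 distinct genes were found and 124 to 126 listed. The lists were drawn up with earlier results of these data known, so counts of their genes are a description with no test. In TTP vs GFP, 4 of 124 were called higher and 25 lower, beside 4.08% and 5.08% of all genes. In TTP-AA vs GFP, 18 of 126 were higher and 5 lower, beside 9.11% and 8.77% of all genes. In TTP-AA vs TTP 38 were higher and 15 lower, beside 14.0% and 14.6%. The counts of each list below stand beside these same shares, and no enrichment is read from them. The medians over the listed genes were -0.007, 0.09 and 0.118 in that order, and most genes were not called. Changes of list genes below are log2 fold changes from the authors' deposited DESeq2 tables with SE and adjusted p. After the same scaling of the Wald scores as above, 10, 2 and 10 of the list genes stayed called in the 3 comparisons, and which of the calls given below ended is said with each list.

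The list of 2′-5′ oligoadenylate synthetases with RNase L, which make and read the second messenger that triggers RNA cleavage, had 7 of 11 genes called lower in TTP vs GFP and 0 higher, with a median of -0.66. In TTP-AA vs GFP 1 of 11 was called, and in TTP-AA vs TTP 8 were higher and 1 lower, with a median of 0.97. Oasl1, a catalytically inactive member, fell by 1.33 in TTP (SE 0.20, DESeq2 adjusted p 1.6e-09) and rose by 1.71 ± 0.19 in TTP-AA vs GFP (DESeq2 adjusted p 3.6e-17). It was the only OAS gene called in both. Oas3 changed by -1.41 ± 0.18 in TTP (DESeq2 adjusted p 2.7e-12) and by 0.31 ± 0.18 in TTP-AA (DESeq2 adjusted p 0.26). Oas2 had -1.31 ± 0.21 and 0.52 ± 0.20, and Oas1g had -1.47 ± 0.19 and 0.20 ± 0.18, in the same order. The Oas1 genes are near-identical copies and reads with up to 2 placements were kept, so values within that family are uncertain. The calls given here for these 4 genes held with scaled Wald scores.

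In the list of RNA-sensor adaptors and kinases, which also holds transcription factors, 2 of 25 genes were called higher and 3 lower in TTP vs GFP. In TTP-AA vs GFP 5 were called higher and 0 lower. Irf7, the interferon-inducible factor that amplifies interferon transcription, changed by -1.17 ± 0.23 in TTP vs GFP (DESeq2 adjusted p 1.5e-05) and was higher by 1.74 ± 0.23 in TTP-AA vs TTP (DESeq2 adjusted p 1e-12). Ticam1, the TRIF adaptor of TLR3, had -0.47 ± 0.14 in TTP vs GFP (DESeq2 adjusted p 0.020). Ikbke, an IRF3 kinase, was higher by 0.55 ± 0.15 in TTP-AA vs GFP (DESeq2 adjusted p 0.003). Dak, an inhibitor of MDA5, was among the genes that went the other way, with 0.45 ± 0.15 in TTP vs GFP (DESeq2 adjusted p 0.044) and -0.79 ± 0.16 in TTP-AA vs TTP (DESeq2 adjusted p 6.7e-06). Exons of Dak overlap Cyb561a3 and Ddb1 on the other strand. Its call in TTP vs GFP ended when the changes were centred on the median of all genes (Wald test, adjusted p 0.0523). Centred on the median of each chromosome, Dak changed by 0.24 in that comparison (Wald test, adjusted p 0.436). With scaled Wald scores the calls of Irf7 held, and those given here for Ticam1 (adjusted p 0.515), Ikbke (adjusted p 0.49) and Dak ended.

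Of 22 listed regulators and co-sensors of RIG-I-like receptors, 4 were called higher and 3 lower in TTP-AA vs GFP, and 4 and 4 in TTP-AA vs TTP, so this list had no common direction. In TTP vs GFP 1 of 21 was higher and 2 lower. Nlrc5 and Nlrx1, NLR proteins reported to dampen this pathway, changed by -0.49 ± 0.12 (DESeq2 adjusted p 0.0019) and -0.83 ± 0.20 (DESeq2 adjusted p 0.00081) in TTP vs GFP. The helicases Ddx3x and Dhx33 changed by -0.41 ± 0.09 (DESeq2 adjusted p 7.6e-05) and -0.37 ± 0.08 (DESeq2 adjusted p 4e-05) in TTP-AA vs TTP. All 4 of these calls ended with scaled Wald scores (adjusted p 0.227 for Nlrc5, 0.166 for Nlrx1, 0.482 for Ddx3x and 0.449 for Dhx33).

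In the list for sensing of DNA, 6 of 20 genes were lower and 1 higher in TTP vs GFP, with a median of 0.06. Of the 6, 5 belong to the interferon-inducible Ifi200 family (Ifi203, Ifi204, Mnda, Mndal and Pyhin1, named after their values were seen). Members of that family share sequence and are uncertain for that reason. Aim2, of the same family and list and also named after its value was seen, was not called (0.06 ± 0.10, DESeq2 adjusted p 0.8). Ifi204 changed by -1.01 ± 0.23 (DESeq2 adjusted p 0.00037) and was higher by 1.28 ± 0.23 in TTP-AA vs TTP (DESeq2 adjusted p 5.2e-07). Rad50 and Xrcc6, DNA-repair proteins that also bind cytosolic DNA, went the other way in TTP-AA vs TTP, with -0.60 ± 0.10 (DESeq2 adjusted p 1.4e-07) and -0.42 ± 0.10 (DESeq2 adjusted p 0.00027). Lrrfip1 had -0.38 ± 0.08 there (DESeq2 adjusted p 1.4e-05). The calls of these 4 genes ended with scaled Wald scores (adjusted p 0.123 for Ifi204 in TTP vs GFP).

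Type I interferon and its receptor pathway had 0 of 11 genes called higher and 4 lower in TTP vs GFP, with a median of -0.21. In TTP-AA vs GFP 3 were higher and 0 lower. Usp18, the interferon-induced brake on the receptor, changed by -1.80 ± 0.21 in TTP vs GFP (DESeq2 adjusted p 7.1e-15) and by -0.24 ± 0.21 in TTP-AA vs GFP (DESeq2 adjusted p 0.49). Irf9, the DNA-binding subunit of the interferon-stimulated complex ISGF3, had -0.91 ± 0.16 in TTP vs GFP (DESeq2 adjusted p 6.2e-07) and 0.07 ± 0.15 in TTP-AA vs GFP (DESeq2 adjusted p 0.81). Irf9 shares 123 exonic bases with Rnf31 on its own strand. Ifnar1, a receptor chain, and Socs1, an inhibitor of JAK signalling, were called in TTP-AA vs GFP instead, with 0.51 ± 0.11 (DESeq2 adjusted p 0.00025) and 1.31 ± 0.21 (DESeq2 adjusted p 1.8e-08). With scaled Wald scores the call of Ifnar1 ended (adjusted p 0.289), and those given here for Usp18, Irf9 and Socs1 held. Ifnb1, the interferon-β gene and named although outside the naming rule, had -0.11 ± 0.19 in TTP vs GFP and 0.17 ± 0.19 in TTP-AA vs GFP and was called in neither.

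Necroptosis genes downstream of ZBP1 had 1 of 7 called lower in TTP vs GFP and 2 higher in TTP-AA vs GFP. Ripk3, the necroptosis kinase, changed by -1.64 ± 0.18 (DESeq2 adjusted p 5.7e-18) in the first comparison and by 0.79 ± 0.17 (DESeq2 adjusted p 5.6e-05) in the second. The second call ended with scaled Wald scores (adjusted p 0.211), whereas those of Ifih1 and Oasl1 in TTP-AA vs GFP did not. Ripk1 was higher by 0.32 ± 0.10 in TTP-AA vs GFP (DESeq2 adjusted p 0.0094), while Casp8 was higher by 0.26 ± 0.09 in TTP-AA vs TTP (DESeq2 adjusted p 0.011), and these calls ended with scaled Wald scores too.

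Endosomal receptors and their processing enzymes had 1 of 11 genes lower in TTP vs GFP, and 5 higher and 2 lower of 12 in TTP-AA vs TTP. Ctss, a cathepsin that cleaves endosomal TLRs, changed by -0.72 ± 0.13 in TTP vs GFP (DESeq2 adjusted p 4.3e-06). Ctsl, another cathepsin, was higher by 0.54 ± 0.13 in TTP-AA vs GFP (DESeq2 adjusted p 0.00053) but overlaps an antisense gene over 1742 exonic bases. Tlr8, a receptor for single-stranded RNA, was higher by 0.72 ± 0.18 in TTP-AA vs TTP (DESeq2 adjusted p 0.00051), and the protease gene Lgmn had -0.46 ± 0.12 (DESeq2 adjusted p 0.0011). With scaled Wald scores the call of Ctss held and those of Ctsl (adjusted p 0.336), Tlr8 and Lgmn ended.

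The lists closest to PKR and ADAR1 had few calls. For eIF2 kinases and eIF2, 1 of 16 genes was lower in TTP vs GFP and 1 was higher in TTP-AA vs GFP. Ppp1r15a, which returns eIF2α to its unphosphorylated state, had -0.57 ± 0.17 in the former (DESeq2 adjusted p 0.011), and Ppp1ca, a phosphatase catalytic subunit, had 0.37 ± 0.07 in the latter (DESeq2 adjusted p 8.7e-06). Eif2b3 had -0.28 ± 0.11 in TTP-AA vs TTP (DESeq2 adjusted p 0.035). Of 6 listed RNA-editing genes none was called in TTP vs GFP in the DESeq2 table, in which 0 of them had an unadjusted p under 0.05. Adat3 was higher by 0.43 ± 0.15 in TTP-AA vs GFP (DESeq2 adjusted p 0.033), with exons inside Scamp4, and Adarb1 had -0.42 ± 0.13 in TTP-AA vs TTP (DESeq2 adjusted p 0.0093). All calls in these 2 lists ended with scaled Wald scores.

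**Figure D3:**
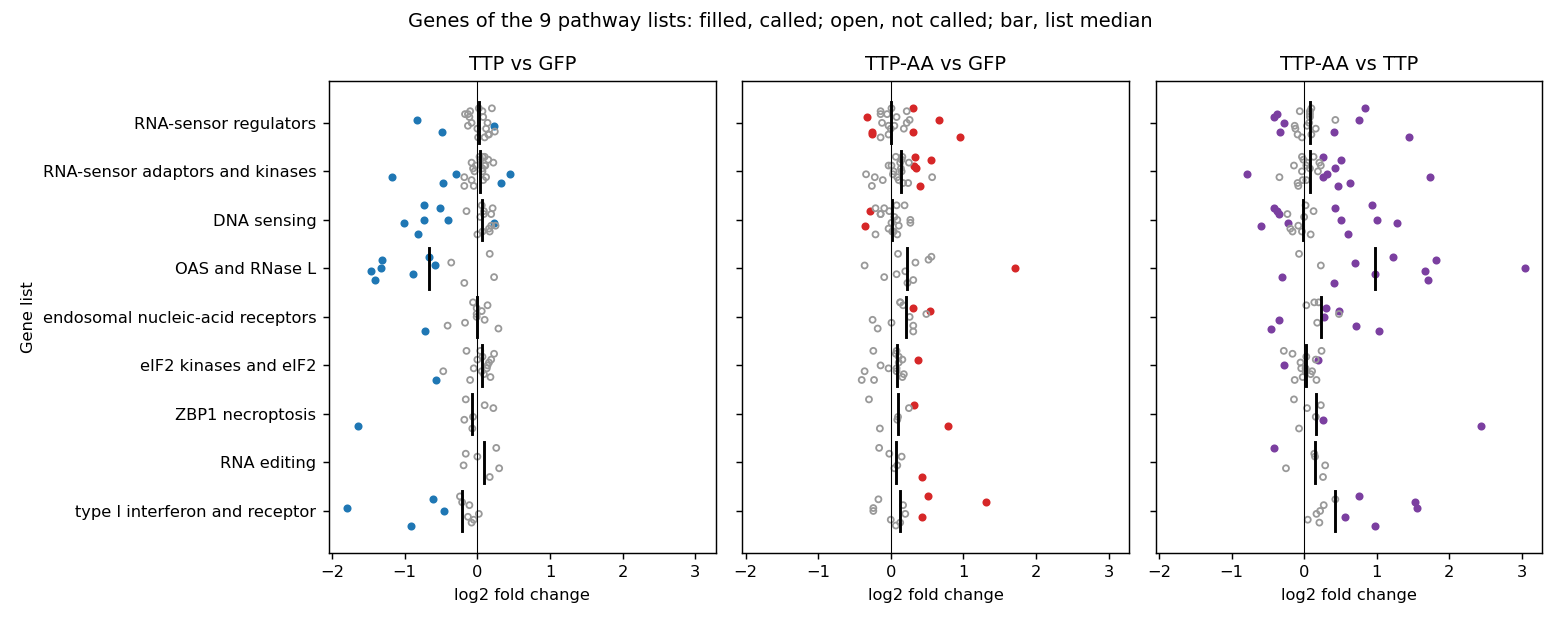
log2 fold changes of every listed gene of the 9 pathway lists in the 3 comparisons, filled when called and open when not, with a bar at each list's median. The OAS and RNase L list is shifted in TTP vs GFP (median -0.66) and in TTP-AA vs TTP (median 0.97). In the same order the type I interferon list has medians of -0.21 and 0.43, and the endosomal list of -0.01 and 0.23. The medians of the lists of regulators, adaptors and eIF2 lie within 0.14 of 0.

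Some macrophage markers were called too. Of 9 listed in TTP vs GFP, 2 were called lower, Emr1 (encoding F4/80) and Fcgr1, and 0 higher. The shares of all genes were 5.08% lower and 4.08% higher. In TTP-AA vs GFP 1 of 10, Emr1, was called higher, beside 9.11% of all genes. In TTP-AA vs TTP 4 were higher and 1 lower, beside 14.0% and 14.6% of all genes. Itgam, Cd14, Csf1r and Cd68 were called in no comparison. Without Lyz2, which outweighs the rest, the summed level of the markers was 88904 to 100031 reads in GFP, 86048 to 96164 in TTP and 105732 to 121024 in TTP-AA. The summed level of the 17 markers of other cell types ran from 304.4 to 357.1 in GFP, from 292.9 to 341.2 in TTP and from 254.0 to 295.9 in TTP-AA, mostly Flt3. Zbtb46, a dendritic cell marker at 13.7 to 46.8 reads, was lower in TTP-AA by 1.10 ± 0.23 than in GFP (DESeq2 adjusted p 5.2e-05) and by 1.06 ± 0.23 than in TTP (DESeq2 adjusted p 5.8e-05). The part of cell state in the changes of the sensors was not tested. In bulk RNA, fewer cells that express a gene and less RNA in each cell cannot be told apart.

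The genes whose changes were most like those of Ifih1 were taken as the 5 at the shortest distance over both log2 changes against GFP, among 11142 genes with a mean of at least 50 reads. They were Smpdl3a (distance 0.30), Decr1 (0.42), Cdc42bpa (0.42), Rnf217 (0.53) and Nck2 (0.60), and none is on any of the lists of sensing genes. Smpdl3a changed by -2.06 ± 0.15 in TTP vs GFP and by 1.25 ± 0.14 in TTP-AA vs GFP. Decr1 had -1.94 ± 0.19 and 1.49 ± 0.16, and Cdc42bpa had -2.63 ± 0.19 and 1.06 ± 0.17. Rnf217 and Nck2 had smaller rises in TTP-AA vs GFP, of 0.85 ± 0.16 and 0.83 ± 0.21. The distance is over 2 comparisons that share the GFP libraries. Over Wald scores in place of fold changes 4 of the 5 were again nearest. Exons of Cdc42bpa overlap Coq8a over 366 bases on the other strand.

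**Figure D4:**
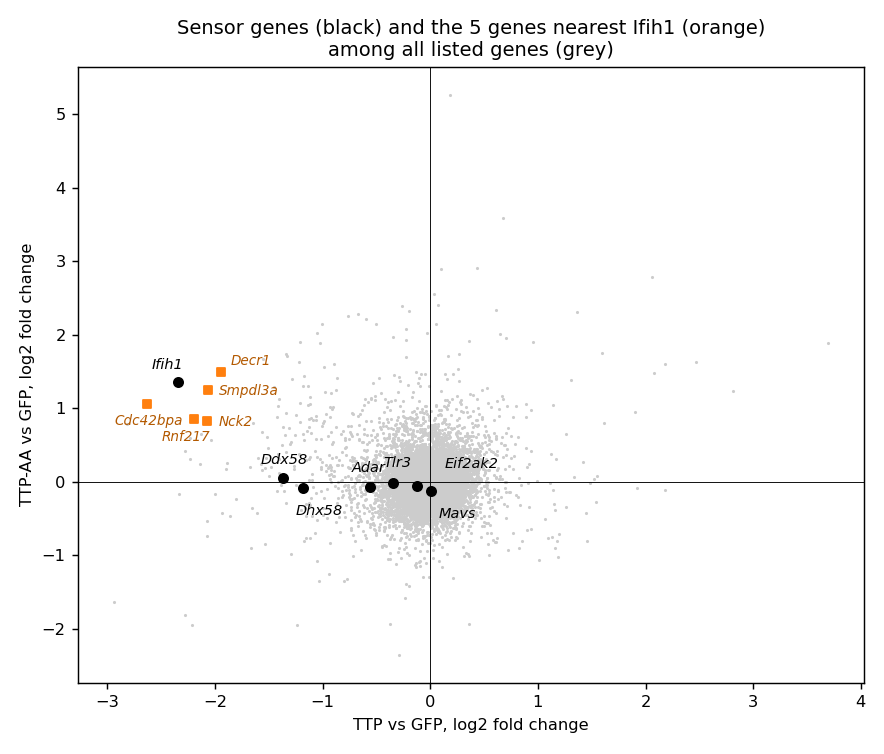
Each grey point is a gene listed in both tables, by its log2 fold change in TTP vs GFP (x axis) and TTP-AA vs GFP (y axis), which share the GFP libraries. Ifih1 and the 5 nearest genes (orange squares) lie at the upper left, between -2.63 and -1.94 on the x axis, while Ddx58 and Dhx58 are at a similar height to the other members.

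Position was examined last. Of the 10 listed genes nearest to Ifih1, 5 on each side, 0 were called in TTP vs GFP, beside 9.16% of all genes, and their changes ran from -0.33 to 0.21, so no neighbour shared its low level in TTP. The closest listed neighbour, Psmd14, lies 795.4 kb away and changed by 0.19 ± 0.09 in TTP vs GFP (DESeq2 adjusted p 0.18). In TTP-AA vs GFP 4 of the 10 were called, beside 17.9% of all genes, among them Tank, a TBK1-binding adaptor, by 0.40. Ly75, 2212.5 kb away, was higher by 1.45 ± 0.23 (DESeq2 adjusted p 2e-08), and Gm13571, which is antisense to it, by 1.46. The remaining call, Ttc21b, went the other way, with -0.34 ± 0.10 (DESeq2 adjusted p 0.0063).

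Over all members the 80 distinct neighbours had 4 calls (5.0%) in TTP vs GFP, where 9.16% of all genes were called in either direction. They had 22 (27.5%) in TTP-AA vs GFP, beside 17.9% of all genes, and in TTP-AA vs TTP 25 (31.2%), beside 28.6%. The difference between these shares was not tested. Single neighbours rose beside members that were not called. Ap5s1, 20.5 kb from Mavs, was higher by 1.15 ± 0.15 in TTP-AA vs GFP (DESeq2 adjusted p 1.7e-11). Fam149a, 13.4 kb from Tlr3, was higher by 1.23 ± 0.13 (DESeq2 adjusted p 7.8e-18). Of the 4 neighbours called in TTP vs GFP, 2 were among the 10 beside Adar. The changes of those 10 all lay under 0, from -0.61 to -0.09, with a median of -0.17. Adar lies on chromosome 3, whose median in TTP vs GFP was -0.199 over 573 genes, against 0.035 for chromosome 2 with Ifih1. The part of the region in the change of Adar was not tested. Centred on the chromosome median Adar changed by -0.36 and was called. Chrnb2, which overlaps Adar, changed by -0.61 ± 0.22 in TTP vs GFP (DESeq2 adjusted p 0.055).

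**Figure D5:**
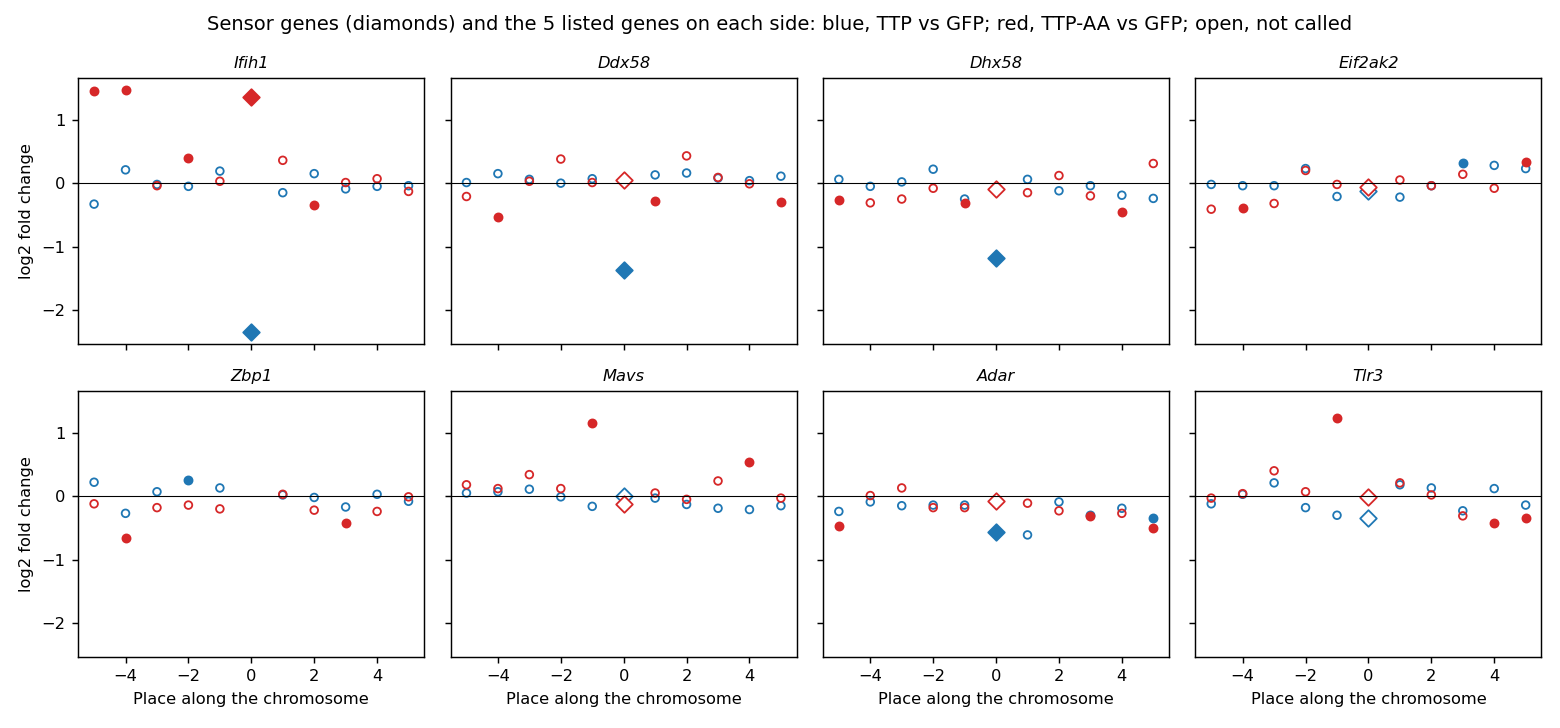
log2 fold changes of the sensor genes (diamonds at place 0) and of the 5 nearest listed genes on each side, ordered along the chromosome, in TTP vs GFP (blue) and TTP-AA vs GFP (red), filled when called. Ifih1 is the one point under -2 in its panel, and Zbp1 has no diamond because the comparison tables do not list it.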

How the data were processed

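RNASeq of 9 libraries was used, grouped by their titles. Per the study's methods and the labels, the authors trimmed reads with Trim Galore, aligned them with TopHat to GRCm38 with up to 2 placements per read, counted them per Ensembl gene with HTSeq and ran DESeq2 1.6.3 with library date and condition as terms and the Cook's filter off. Whether counting used strand is not given in the sources used here.

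The deposited library table holds signal values on the scale of reads. It has 4 nonzero singular values after centring, no value of 0, and same-numbered log2 ratios that equal the deposited fold changes to within 1.5e-14, so it holds fitted means. They were divided by median-ratio library factors. For each gene, the comparison tables deposited by the authors hold the mean signal, the log2 fold change and standard error, the Wald score, and the p-value before and after Benjamini-Hochberg adjustment, and no own test could take their place. They list 11977, 13205 and 13205 genes. The deposited fold changes act as shrunk values. The steps were tested on simulated data.

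The sensors and the gene lists were chosen with earlier results of these data known. Up to 4 genes of each list were named, those with the largest absolute Wald score among called genes with a mean of at least 50 reads. A replicate here is a library, which the submitters call a biological replicate. Precision is given by the standard errors, since fitted sums stand in for depth. Lengths, positions and 3′UTRs came from GENCODE on GRCm38 and promoters from RefSeq. Python 3.11.15, numpy 2.4.6, pandas and scipy were used. Alternatives were other error scalings, centring, GC and length correction and a mean filter. Ribosome profiling and iCLIP were not analysed here.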

Additional observations from a re-analysis of the deposited data

Results flagged for a closer look

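Oasl1 and Ripk3 differed between the TTP and TTP-AA groups in opposite directions from GFP, which marked both for a closer look. Oasl1 was higher by 3.04 on the log2 scale in TTP-AA vs TTP (DESeq2 adjusted p 3.1e-52). Ripk3 was higher by 2.43 (DESeq2 adjusted p 4e-41). No member is marked, since the members were chosen on these contrasts. With 3 libraries a group, single libraries were not examined for standing apart.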

How the results depend on the processing

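No paired analysis was possible because the library table holds fitted means without scatter, and for the same reason no replicate could be left out. The authors' model already has a library date term, which divides the libraries as the replicate numbers do. A pseudocount was not tried, as no value is 0. The median change of the members went from -0.56 to -0.403 in TTP vs GFP when centred by chromosome, more than the error of the median gene (0.11), from -0.06 to 0.007 in TTP-AA vs GFP and from 0.49 to 0.40 in TTP-AA vs TTP, both less than that error. Under the other alternatives run it moved by less than that error in all 3 comparisons. With the t distribution of 4 degrees of freedom the members called went from 4, 1 and 4 to 0, 0 and 0 in the 3 comparisons. The list genes called went from 29, 23 and 53 to 0, 0 and 0. From these DESeq2 scores 4, 1 and 4 members and 30, 22 and 48 list genes had an unadjusted p under 0.05. No share of all genes is given beside these counts, and nothing is read from them. With Wald scores divided by their central spread the list genes called were 10, 2 and 10, the members called in TTP-AA vs TTP were 2, and over all genes 1097, 2361 and 3780 calls became 249, 197 and 264. Of 126 values of single members, 109 kept their direction and side of the threshold, 12 lost the call and 5 changed sign, all from values that were not called. Those were Mavs in TTP vs GFP (-0.02 centred by chromosome, -0.00 with the GC and length trend removed) and, in TTP-AA vs GFP, Dhx58 (0.01) and Adar (0.03) centred by chromosome and Tlr3 (0.02) with the trend removed. Ppp1ca in TTP vs GFP (-0.02) and Nlrx1 in TTP-AA vs GFP (-0.01) also changed sign when centred by chromosome. Of 576 values of other named genes 470 were kept, 100 lost the call and 4 gained it. The causes were not tested. The level of Ifih1 per kilobase in GFP was 31.6 with all exons against 47.1. Promoter matches to the longer form of the motif, ending in CT, were found in 1 of the 6 members with a window, beside 0.303% of genes. With the last base free, a form chosen after seeing the data, matches were found in 4, beside 9.76% of genes. The 5-base form ATTTA was found in the 3′UTR of 6 members, and in 66.1% of genes. Depth limits Zbp1, at under 1 read, and Ifih1 in TTP.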
